A study of Mus musculus with 18 samples.

Results

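The 7 genes described here are the aryl hydrocarbon receptor Ahr, its partner Arnt, its repressor Ahrr, the cytochrome P450 genes Cyp1a1 and Cyp1b1, the receptor target Tiparp, and Ephx1, the microsomal epoxide hydrolase. They were chosen by name for their known place in the response to, and activation of, the carcinogen DMBA (7,12-dimethylbenz[a]anthracene). The choice was made with earlier results of these data known. All 7 were found among the 23337 rows of the count table, and all 7 passed the filter on low counts that left 15482 genes for testing. RNA sequencing was done on mammary gland tissue, taken without its lymph nodes, of Cip2a-/- and WT mice of a C57BL/6Jx129 background. The deleted gene, Cip2a, codes for a cellular inhibitor of the phosphatase PP2A. There were 6 groups of 3 libraries. Cip2a-/- untreated and WT untreated glands came from mice given nothing. Cip2a-/- and WT glands at 2 weeks came from mice that had received 1 mg of DMBA in oil by gavage weekly for 6 weeks, from an age of 12 to 14 weeks, and were taken 2 weeks after the last dose. Cip2a-/- and WT endpoint glands had the same dosing and were tumour-free glands of mice killed because of a DMBA-induced tumour in some tissue. For the endpoint, neither age nor the interval from the last dose is given in the sources used here. No oil-only group is given either, so that DMBA, gavage, oil and age cannot be told apart. At the endpoint, the tumour elsewhere in the mouse cannot be told apart from these.

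Ahr is a cytoplasmic receptor held by Hsp90 chaperones. When a polycyclic aromatic hydrocarbon such as DMBA binds, the receptor enters the nucleus, pairs with Arnt and binds DNA at sites with the core GCGTG, which turns on Cyp1a1, Cyp1b1, Tiparp and Ahrr. Cyp1b1 and Ephx1 act in turn on DMBA: Cyp1b1 oxidises it to an epoxide, Ephx1 opens that epoxide to a dihydrodiol, and a further oxidation gives the diol epoxide that binds DNA. Mouse strains carry Ahr alleles of different ligand affinity, and C57BL/6J and 129 mice differ in this, but the labels do not give the allele of any mouse.

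Windows of the RefSeq promoter table (build GRCm38.p6), which run from 250 bases before to 50 bases after a start site, were found for 6 of the 7 genes and not for Ahr. The windows of the gene that passed the test after DMBA (Ephx1) and of 3 classical receptor targets are given here because they differ in the receptor core. They are written on the strand of the gene, with each GCGTG, or CACGC where the core lies on the other strand, in capitals.
Ephx1 (chr1:181017520-181017819, minus strand): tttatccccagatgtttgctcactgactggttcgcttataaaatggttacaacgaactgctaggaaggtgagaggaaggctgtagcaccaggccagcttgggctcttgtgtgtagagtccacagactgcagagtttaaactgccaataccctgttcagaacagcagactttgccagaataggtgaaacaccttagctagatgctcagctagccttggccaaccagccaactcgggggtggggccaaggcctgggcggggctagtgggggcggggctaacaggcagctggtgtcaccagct
Cyp1a1 (chr9:57697363-57697662, plus strand): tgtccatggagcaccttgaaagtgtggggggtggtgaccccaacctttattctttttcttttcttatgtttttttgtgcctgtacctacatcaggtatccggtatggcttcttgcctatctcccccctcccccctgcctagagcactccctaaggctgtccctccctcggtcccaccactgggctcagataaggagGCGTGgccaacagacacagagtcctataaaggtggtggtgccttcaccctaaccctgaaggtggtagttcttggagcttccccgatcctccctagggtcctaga
Cyp1b1 (chr17:79715012-79715311, minus strand): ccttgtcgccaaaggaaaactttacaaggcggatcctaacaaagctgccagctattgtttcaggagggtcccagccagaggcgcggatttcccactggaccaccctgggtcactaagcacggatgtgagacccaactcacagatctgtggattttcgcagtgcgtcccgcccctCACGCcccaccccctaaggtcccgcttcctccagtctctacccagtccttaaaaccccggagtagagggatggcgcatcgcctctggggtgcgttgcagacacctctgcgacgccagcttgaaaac
Ahrr (chr13:74292282-74292581, minus strand): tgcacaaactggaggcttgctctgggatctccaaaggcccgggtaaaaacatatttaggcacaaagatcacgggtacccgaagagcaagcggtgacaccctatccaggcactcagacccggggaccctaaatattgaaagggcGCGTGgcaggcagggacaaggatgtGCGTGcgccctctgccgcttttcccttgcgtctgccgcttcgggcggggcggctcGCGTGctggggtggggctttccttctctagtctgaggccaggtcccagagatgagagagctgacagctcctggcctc

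On both strands, GCGTG was found 3 times in the Ahrr window, once each in the windows of Arnt, Cyp1a1, Cyp1b1 and Tiparp, and 0 times in that of Ephx1. It lay at position -54 from the start site in Cyp1a1 and at -76 in Cyp1b1. Of all 32851 windows of 300 bases in that table, 32.4% held it. The longer form TNGCGTG, whose last 5 letters are that core, was found in the Ahrr window alone of the 6, against 5.07% of all windows. The Nrf2 core TGACNNNGC was found 2 times in the Arnt window and 0 times in the other 5, Ephx1 included, against 12.4% of all windows. A match is a run of letters and not a shown site, and a window without one says nothing of sites elsewhere.

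Total counts per library ranged from 16121743 to 24586404. Cip2a had 0 to 1 reads in each Cip2a-/- library and 15 to 126 reads in each WT library, as the labels state. WT endpoint library 1 stood apart in its cell markers: of all 18 libraries it had the lowest sum over 6 luminal markers (20.7 CPM, that is, depth-scaled counts after TMM) and the highest over 6 B cell (1609 CPM), 6 T cell (591.1 CPM), 5 lymph node stroma (325.8 CPM, 1 marker at 0 and 1 not in the table) and 5 brown fat markers (8421 CPM), although the tissue was taken without lymph nodes. Sums over 6 skeletal muscle markers ran from 15.3 to 56460 CPM, the highest in Cip2a-/- 2-week library 1. Each column header carries a number of unstated meaning, which is higher in all 6 libraries of the 2-week groups than in any other, so that what it stands for and the 2-week condition cannot be told apart.

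Per length of transcript, Ephx1 was the highest of the 7 genes and Arnt the next in each of the 18 libraries. The mean level over the 18 libraries was 107.7 ± 57.4 CPM per kb (SD) for Ephx1 and 19.6 ± 2.48 for Arnt. It was 8.87 ± 2.28 CPM per kb for Tiparp, 6.11 ± 3.29 for Cyp1b1, 3.18 ± 1.14 for Ahr, 2.36 ± 2.23 for Cyp1a1 and 0.234 ± 0.113 for Ahrr. Compared within each library, Tiparp lay above Cyp1b1 in 15 of 18, Cyp1b1 above Ahr in 17 of 18, Ahr above Cyp1a1 in 12 of 18 and Cyp1a1 above Ahrr in 17 of 18. The level of Arnt was 3.70 to 13.8 times that of Ahr per length within a library.

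**Figure D1:**
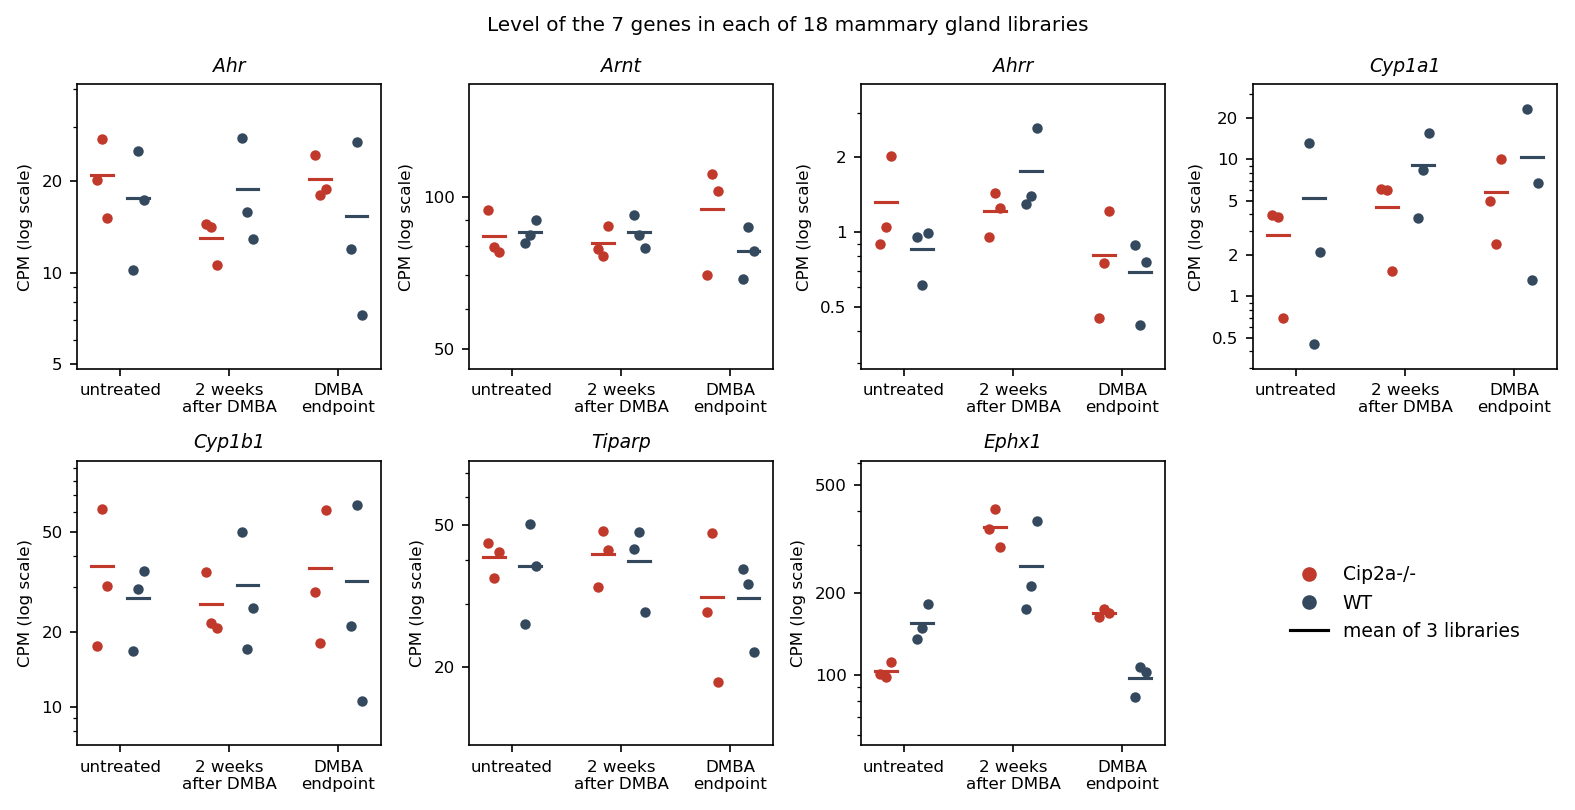
CPM after TMM scaling (y axis, log scale, a separate range for each gene) of the 7 genes in 18 libraries, by condition along the x axis, with Cip2a-/- in red and WT in dark blue; points are libraries and lines are means of 3. Ephx1 stands at 174.1 to 406.8 CPM in the 2-week libraries, while Cyp1a1 spreads from 0.447 to 23.5 CPM with groups that overlap throughout.

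Ephx1 was the member with a difference that edgeR called after DMBA. Averaged over the genotypes, its RNA was higher at 2 weeks than in untreated glands and lower at the endpoint than at 2 weeks. That the other members were not called does not show that they stayed unchanged. The gene lies on chromosome 1, positions 180989556 to 181017569 (GRCm38). In untreated glands it had 100.5, 97.8 and 111.3 CPM in the 3 Cip2a-/- libraries and 134.9, 148.4 and 182.3 CPM in the 3 WT libraries. At 2 weeks it had 344.2, 406.8 and 295.4 CPM in the Cip2a-/- libraries and 174.1, 212.4 and 368.8 CPM in the WT libraries. At the endpoint it had 162.8, 174.4 and 168.7 CPM in the Cip2a-/- libraries and 82.8, 106.9 and 102.7 CPM in the WT libraries. All Cip2a-/- libraries at 2 weeks thus lay above the Cip2a-/- untreated ones, as 6.93% of genes did, while the WT libraries at 2 weeks overlapped the untreated ones, with WT library 3 far above libraries 1 and 2.

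Averaged over the genotypes, Ephx1 rose at 2 weeks by a log2 fold change of 1.23 ± 0.17 (SE), a 2.34-fold difference with a 95% interval from 0.87 to 1.58 on the log2 scale. The edgeR quasi-likelihood test, adjusted over all genes by the Benjamini-Hochberg method, called it (adjusted p = 0.0216). It called 4 of the 15482 genes, or 0.0258%, in that comparison, 3 of them higher (0.0194%), and 1 of the 7 described here, also higher. Within Cip2a-/- the log2 fold change was 1.76 ± 0.24 (3.38-fold, adjusted p = 0.0369 with edgeR), in a comparison that called 2 genes (0.0129%). Within WT it was 0.70 ± 0.23 and missed the threshold (adjusted p = 0.953 with edgeR). No gene at all was called within WT by edgeR, where 655 genes had an unadjusted p under 0.05, DESeq2 called 14 and limma-voom 528. That the rise differed between the genotypes was not called either: the difference of the log2 fold changes was 1.06 ± 0.33 (95% interval 0.36 to 1.76, adjusted p = 0.999 with edgeR).

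The size of the rise was steadier than its call. Leaving out each of the 12 libraries of the comparison in turn gave an averaged log2 fold change of 1.04 to 1.33, but the call was kept in 5 of 12 fits. It was lost without WT untreated library 1 or 2 (adjusted p = 0.108 and 0.0894 with edgeR), without any of the Cip2a-/- untreated libraries 1, 2 and 3 (adjusted p = 0.0635, 0.0898 and 0.0563), and without Cip2a-/- 2-week library 1 or 2 (adjusted p = 0.0663 and 0.0773). Within Cip2a-/- the log2 fold change stayed at 1.63 to 1.86 when each of the 6 libraries was left out, and the call was lost each time (adjusted p from 0.0652 to 0.357 with edgeR). Within WT the log2 fold change was 0.32 without 2-week library 3, against 0.70 with it, so the larger part of the value hung on this library. In a fit without the 6 endpoint libraries, chosen after seeing the data, the averaged log2 fold change was 1.23 with an adjusted p of 0.0646 by edgeR.

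**Figure D2:**
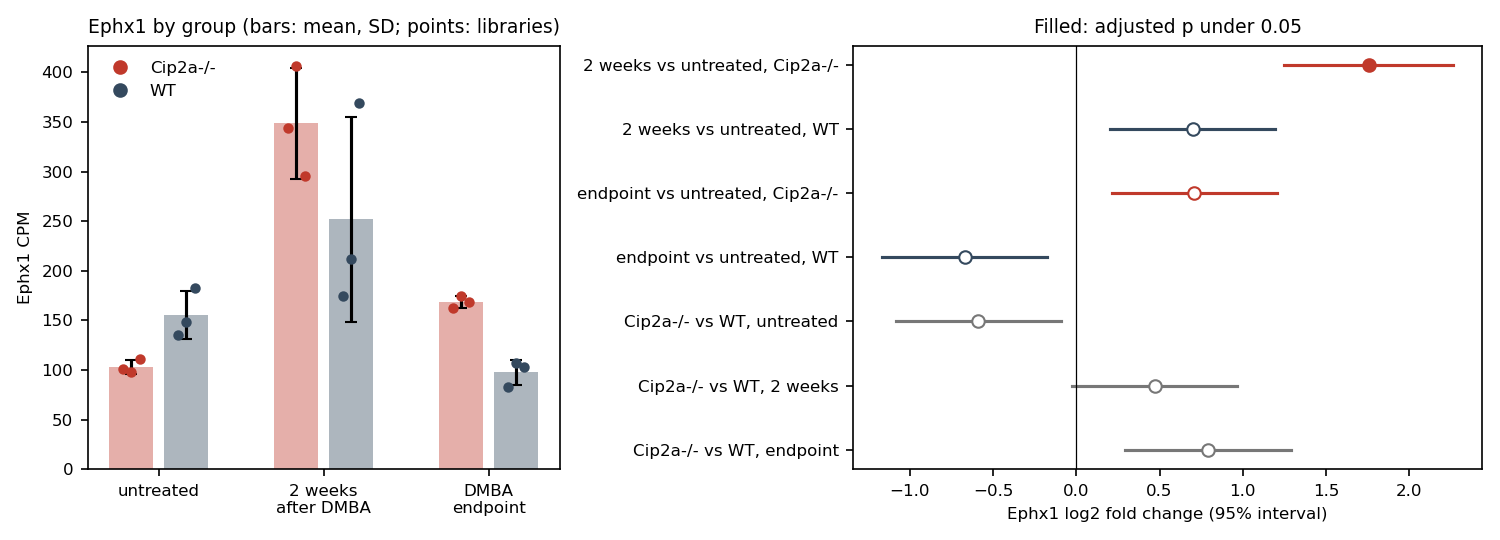
Left, Ephx1 CPM (y axis, linear from 0) by condition, with bars for the mean of 3 libraries, error bars for the SD and points for libraries, Cip2a-/- in red and WT in dark blue. Right, fitted Ephx1 log2 fold changes with 95% intervals (x axis) for 7 comparisons, red for DMBA in Cip2a-/-, dark blue for DMBA in WT and grey for Cip2a-/- against WT; the filled point, 1.76 at 2 weeks in Cip2a-/-, is the comparison with an adjusted p under 0.05.

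Against the 2-week glands, Ephx1 fell at the endpoint by 1.21 ± 0.17 on the log2 scale (0.433-fold, 95% interval from -1.56 to -0.85, adjusted p = 0.00257 with edgeR). Endpoint libraries lay below 2-week libraries without overlap within Cip2a-/-, where 11.4% of genes did so, and within WT, where 13.2% did. This comparison called 2067 genes, 13.4% of those tested, and 1075 of them (6.94%) as lower, so a call in it is far less unusual than at 2 weeks, and it shares its 2-week libraries with the comparison above. The call was kept in all 12 fits that left out 1 of its libraries, with log2 fold changes from -1.31 to -1.02. Ephx1 at the endpoint was not called against untreated glands when averaged over the genotypes (log2 fold change 0.02 ± 0.16, 95% interval -0.33 to 0.37).

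That average joins opposite differences. Within Cip2a-/- the 3 endpoint libraries lay above the 3 untreated ones, as 8.19% of genes did (log2 fold change 0.71 ± 0.23, adjusted p = 0.281 with edgeR). Within WT, where 5 genes were called (0.0323%), the 3 endpoint libraries lay below the 3 untreated ones, as 7.8% of genes did (log2 fold change -0.67 ± 0.23, adjusted p = 0.299 with edgeR). The edgeR test of the difference itself gave 1.38 ± 0.33 on the log2 scale (95% interval 0.68 to 2.08, adjusted p = 0.49), and DESeq2 gave 1.39 with an adjusted p of 0.0351. With edgeR, 0 genes were called for this difference and 1553 had an unadjusted p under 0.05, while DESeq2 called 34. The same arrangement, lower in WT and higher in Cip2a-/- without overlap in either, was found in 18 genes (0.116%). Without WT endpoint library 1, whose immune and brown fat markers were the highest, the log2 fold change within WT was -0.57 and the difference 1.27. The 6 B cell markers had a median difference of -6.01, with 0 called, and their part in the Ephx1 difference was not tested.

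Between the genotypes, Ephx1 at the endpoint was 168.7 ± 5.79 CPM in Cip2a-/- glands and 97.5 ± 12.9 CPM in WT ones (SD, n = 3 each), a log2 fold change of 0.79 ± 0.23 that edgeR did not call (adjusted p = 0.458), and 0.66 without WT endpoint library 1. The groups did not overlap, as held for 2.26% of genes in that direction. In untreated glands it was 103.2 ± 7.09 CPM in Cip2a-/- and 155.2 ± 24.4 CPM in WT (SD, n = 3 each), without overlap in the other direction (6.5% of genes), with a log2 fold change of -0.59 ± 0.23 (adjusted p = 1 with edgeR). At 2 weeks the genotypes overlapped (348.8 ± 55.9 CPM in Cip2a-/- and 251.8 ± 103.1 CPM in WT, SD, n = 3 each). Neighbouring groups in the order of the 6 mean levels overlapped, except that all WT untreated libraries lay above all Cip2a-/- untreated ones.

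Markers of fibroblasts followed Ephx1 in some comparisons and not in others. Of the 6 markers (Pdgfra, Col1a1, Col1a2, Dcn, Lum and Col3a1) 6 had a positive log2 fold change at 2 weeks, with 0 called. Their median was 0.48, against 0 over all genes. In the endpoint glands against those at 2 weeks, 5 of 6 were called lower, as were 6.94% of all genes, and their median was -1.80. At the endpoint against untreated glands 0 of 6 had a positive value, with a median of -1.30 and 0 called, where the Ephx1 log2 fold change was 0.02. Within Cip2a-/- that median was -0.79 against 0.71 for Ephx1, and within WT it was -1.53 against -0.67 for Ephx1. Dcn alone moved in the directions of Ephx1. Its mean went from 767.7 to 1109 CPM in Cip2a-/-, with overlap, and from 775.2 to 360.8 CPM in WT. The means of the other markers fell in both genotypes. The summed level of the 6 markers was 2267 to 5699 CPM in untreated libraries, 4421 to 11000 CPM at 2 weeks and 574.8 to 3604 CPM at the endpoint. None of the 6 was at 0 in any library. Within the Cip2a-/- 2-week group the order was not shared: library 3 had the highest fibroblast sum (11000 CPM) and the lowest Ephx1 level of the 3 (295.4 CPM). White adipocyte markers, from a cell type that dominates this tissue, had a median log2 fold change of -0.005 at 2 weeks, with 0 of 6 called. The part of the fibroblast markers in the Ephx1 result was not tested. In bulk tissue, fewer cells of a type and less RNA per cell cannot be told apart.

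The receptor itself showed no change that passed the test. Ahr (chromosome 12, 35497979 to 35534989) had 20.1, 27.3 and 15.1 CPM in Cip2a-/- and 10.2, 25.1 and 17.3 CPM in WT untreated libraries. At 2 weeks it had 14.5, 14.1 and 10.6 CPM in Cip2a-/- and 27.6, 15.9 and 12.9 CPM in WT libraries. At the endpoint it had 24.3, 17.9 and 18.8 CPM in Cip2a-/- and 11.9, 26.8 and 7.27 CPM in WT libraries. Only within Cip2a-/- did the 2-week libraries lie below the untreated ones without overlap, as 5.48% of genes did, and the log2 fold change there was -0.68 ± 0.44 (adjusted p = 0.92 with edgeR). The Cip2a-/- endpoint libraries lay above the 2-week ones, as 12.5% of genes did, with a range of 17.9 to 24.3 against 10.6 to 14.5 CPM. Averaged over the genotypes the log2 fold change was -0.29 ± 0.31 at 2 weeks (95% interval -0.95 to 0.38) and -0.11 ± 0.31 at the endpoint (95% interval -0.78 to 0.55). Leaving out 1 library moved these: the 2-week value was -0.48 without WT 2-week library 1, and the endpoint value was -0.45 without WT endpoint library 2 and, with its sign turned, 0.06 without WT untreated library 2. A lincRNA gene on the opposite strand shares 127 exonic bases with Ahr, and since no source used here states the strand setting of the counting, reads of the pair may be mixed.

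Arnt, the nuclear partner of the receptor, was the steadiest of the 7 genes (chromosome 3, 95434367 to 95497240). Its level was 77.8 to 94.1 CPM in untreated, 76.5 to 92.3 CPM in 2-week and 68.7 to 111.3 CPM in endpoint libraries, with medians of 82.6, 81.8 and 82.9 CPM. Its SD within groups was 0.187 on the log2 scale, and 11.7% of the genes tested had a smaller SD. The 95% interval of its log2 fold change at 2 weeks, -0.27 to 0.22, was the narrowest of the 7. Its log2 fold change at the endpoint was 0.03 ± 0.11, and between Cip2a-/- and WT, averaged over conditions, it was 0.06 ± 0.09.

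Ahrr, the repressor that competes with Ahr for Arnt, was the scarcest member, with 9 to 62 reads per library (chromosome 13, 74211118 to 74292331). It had 0.897, 1.045 and 2.03 CPM in Cip2a-/- and 0.954, 0.614 and 0.997 CPM in WT untreated libraries. At 2 weeks it had 0.960, 1.44 and 1.25 CPM in Cip2a-/- and 1.3, 1.39 and 2.61 CPM in WT libraries. At the endpoint it had 0.451, 0.752 and 1.22 CPM in Cip2a-/- and 0.887, 0.426 and 0.758 CPM in WT libraries. In WT all 2-week libraries lay above the untreated ones, as 14.2% of genes did, with a log2 fold change of 1.04 ± 0.47 that did not pass the test (adjusted p = 0.953 with edgeR) and was 0.65 without WT 2-week library 3. In Cip2a-/- the groups overlapped, and the log2 fold change was -0.12 ± 0.47. At the endpoint against 2 weeks it was -0.98 ± 0.34, which edgeR did not call (adjusted p = 0.0658) and DESeq2 did (-0.99, adjusted p = 0.0351). Ahrr is thus the member, besides Ephx1, for which the choice of test decides a call.

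Cyp1a1, the most widely used marker of receptor activity, varied widely within groups, which overlapped (chromosome 9, 57687928 to 57703824). It had 3.95, 3.80 and 0.695 CPM in Cip2a-/- and 13.3, 0.447 and 2.10 CPM in WT untreated libraries. At 2 weeks it had 6.10, 5.97 and 1.53 CPM in Cip2a-/- and 3.76, 8.32 and 15.5 CPM in WT libraries. At the endpoint it had 4.96, 2.42 and 10.01 CPM in Cip2a-/- and 23.5, 1.32 and 6.70 CPM in WT libraries. Its highest level was 52.6 times its lowest, and 95.4% of the genes tested had a smaller SD within groups. The averaged log2 fold change was 0.74 ± 0.79 at 2 weeks (95% interval -0.95 to 2.43) and 1.01 ± 0.79 at the endpoint (95% interval -0.68 to 2.71), neither called by edgeR (adjusted p = 0.904 and 0.557). Leaving out WT untreated library 1, the highest of the untreated ones, moved these to 1.76 and 2.03, still without a call, and leaving out WT endpoint library 1 moved the endpoint value to 0.30. Between Cip2a-/- and WT, averaged over conditions, the log2 fold change was -0.93 ± 0.65 (adjusted p = 1 with edgeR), and -0.27 without WT untreated library 1. These intervals are too wide to tell a several-fold rise of Cyp1a1 from none.

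Cyp1b1, the enzyme that oxidises DMBA in tissues outside the liver, also showed no difference that passed the test (chromosome 17, 79706940 to 79715061). It had 17.5, 62.0 and 30.5 CPM in Cip2a-/- and 16.7, 29.6 and 35.0 CPM in WT untreated libraries. At 2 weeks it had 34.7, 21.7 and 20.7 CPM in Cip2a-/- and 50.03, 17.1 and 24.7 CPM in WT libraries. At the endpoint it had 28.9, 18 and 61.0 CPM in Cip2a-/- and 21.0, 64.1 and 10.6 CPM in WT libraries. The groups overlapped at all 3 conditions, and the averaged log2 fold change was -0.17 ± 0.46 at 2 weeks (95% interval -1.15 to 0.81) and 0.10 ± 0.46 at the endpoint (95% interval -0.87 to 1.08). Single libraries decided these signs: the 2-week value was 0.14 without Cip2a-/- untreated library 2, and the endpoint value was -0.40 without WT endpoint library 2.

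Epithelial markers went with the spread of Ahr and Cyp1b1 in some libraries and not in others. WT endpoint library 2, with the higher values of both genes, had sums of 2995 CPM over 6 luminal and 1894 CPM over 6 basal myoepithelial markers, while WT endpoint library 3, with the lowest values of both, had 591.8 and 254.9 CPM. WT endpoint library 1 broke this order, with the lowest sums, 20.7 and 150.4 CPM. It had more Ahr (11.9 against 7.27 CPM) and Cyp1b1 (21.0 against 10.6 CPM) than library 3. In Cip2a-/- endpoint glands the luminal sum was 3313, 1244 and 3228 CPM and the basal sum 1937, 772.9 and 1503 CPM in libraries 1 to 3, and library 2 had the lowest level of both genes. Cip2a-/- endpoint library 1 had the highest of both sums in its group, but less Cyp1b1 than library 3 (28.9 against 61.0 CPM). At 2 weeks in WT, library 3 had the highest luminal sum (2677 CPM) and the lowest Ahr level (12.9 CPM). None of these 12 markers was at 0 in any library. Over all 18 libraries the luminal sum ran from 20.7 to 3313 CPM, and its part in the levels of Ahr and Cyp1b1 was not tested.

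Tiparp, an ADP-ribosyltransferase that the receptor induces and that restrains it, ranged from 18.1 to 50.5 CPM and showed no difference that passed the test (chromosome 3, 65528447 to 65555518). It had 44.5, 35.5 and 42.2 CPM in Cip2a-/- and 26.4, 50.5 and 38.3 CPM in WT untreated libraries. At 2 weeks it had 33.6, 48.3 and 42.7 CPM in Cip2a-/- and 42.9, 47.7 and 28.6 CPM in WT libraries. At the endpoint it had 28.5, 47.6 and 18.1 CPM in Cip2a-/- and 37.6, 34.3 and 22.1 CPM in WT libraries. The groups overlapped, and the log2 fold change was 0.04 ± 0.23 at 2 weeks (95% interval -0.46 to 0.54) and -0.34 ± 0.23 at the endpoint (95% interval -0.83 to 0.16). A transcribed pseudogene on the opposite strand shares 223 exonic bases with Tiparp, so its count carries the same doubt as that of Ahr.

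Of the 7 genes, 0 were called between Cip2a-/- and WT in any condition or on average, where 1 gene of 15482 was called on average (0.00646%) and 142 had an unadjusted p under 0.05. The averaged log2 fold changes of Cip2a-/- against WT ran from -0.93 for Cyp1a1 to 0.22 for Ephx1. By DESeq2 and by limma-voom, 0 of the 7 were called on average as well. At the endpoint against untreated glands, averaged over the genotypes, 0 of the 7 were called, where 39 genes were (0.252%).

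**Figure D3:**
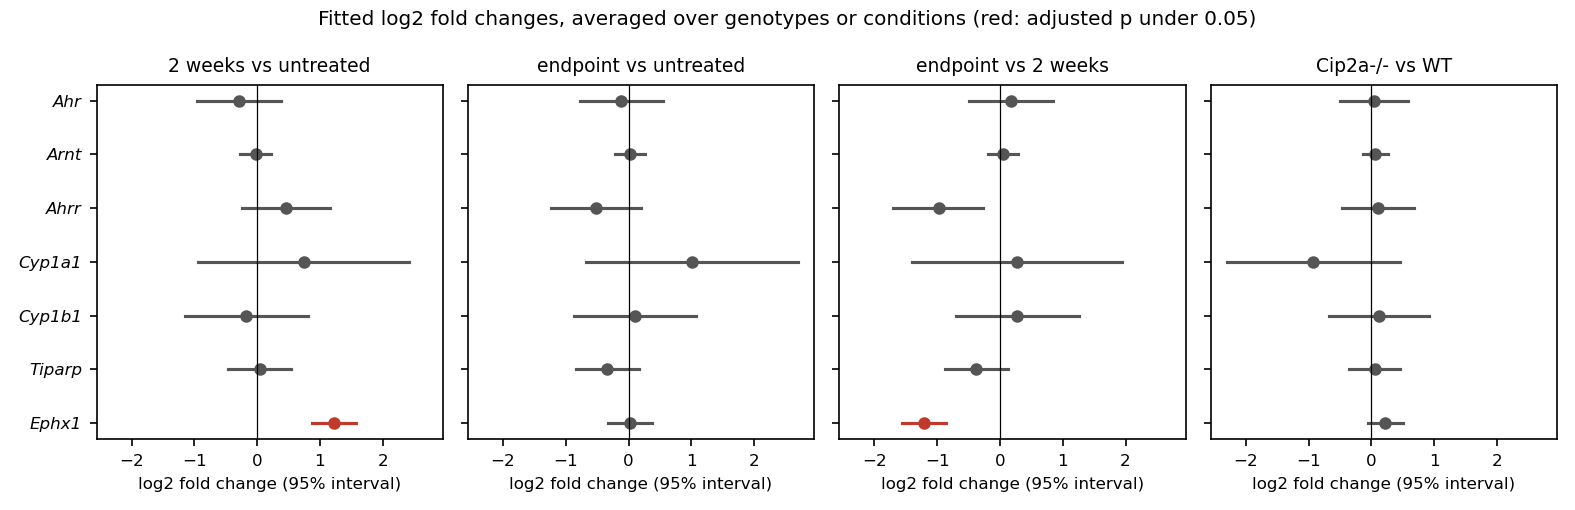
Fitted log2 fold changes (x axis) with 95% intervals of the 7 genes (rows) in 4 comparisons, the first 3 averaged over genotypes and the last over conditions; red marks an adjusted p under 0.05. Ephx1 is called at 2 weeks against untreated (1.23) and at the endpoint against 2 weeks (-1.21), and the intervals of Cyp1a1 are the widest.

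The genes around these 7 were followed in 6 lists by role, 76 genes in all, of which 66 were tested. Of the other 10, 9 were too scarce, with 4 to 52 reads over all libraries, and 1 had no row. The scarce ones included Cyp1a2, the liver relative of Cyp1a1 and its neighbour in the genome, with 4 reads in all. At 2 weeks 0 of the 66 were called, where 0.0258% of all genes were. Of the 66, 4 (6.06%) had an unadjusted p under 0.05, as did 6.57% of all genes. The median log2 fold change was 0.04 over these 66 genes and 0 over all genes.

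Of 12 chaperones and related partners of the receptor, 12 were tested, with a median log2 fold change of 0.14 at 2 weeks. Hsp90ab1, the chaperone that holds Ahr in the cytoplasm, was abundant, with a mean of 1193 CPM over the libraries, and had a log2 fold change of -0.04 ± 0.17, and Epas1, another partner of Arnt, with 648 CPM, had -0.27 ± 0.24. The smallest p of this list was that of Hif1a, the oxygen-regulated partner of Arnt. Hif1a was at 40.2 to 71.6 CPM in untreated, 83.7 to 102.2 CPM in 2-week and 21.9 to 52.4 CPM in endpoint libraries, so all 6 libraries at 2 weeks lay above all untreated and all endpoint ones. Of all genes, 0.711% did the first of these and 3.49% the second. The log2 fold change of Hif1a at 2 weeks, 0.61 ± 0.19, did not pass the test (adjusted p = 0.59 with edgeR). The co-chaperone Ptges3 had 0.20 ± 0.11.

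Of 17 other genes that the receptor can induce, 13 were tested, 8 of them with a positive log2 fold change at 2 weeks and a median of 0.13. Xdh, xanthine dehydrogenase, was the most abundant at 309.7 CPM and had a log2 fold change of -0.29 ± 0.22, and Nfe2l2, which encodes Nrf2, had 0.21 ± 0.12. Ido1, which degrades tryptophan to kynurenine, itself a ligand of the receptor, had 2.26, 38.4 and 12.5 CPM in Cip2a-/- and 3.85, 51.1 and 65.8 CPM in WT libraries at 2 weeks. In untreated libraries it had 1.25, 0.440 and 7.82 CPM in Cip2a-/- and 1.39, 2.18 and 2.88 CPM in WT. Libraries 2 and 3 of both genotypes at 2 weeks lay above all untreated ones and library 1 did not, and the log2 fold change of 3.36 ± 0.88 did not pass the test (adjusted p = 0.399 with edgeR).

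Of 13 genes of hydrocarbon oxidation, 11 were tested, 3 of them with a positive log2 fold change at 2 weeks and a median of -0.06. Cyp2e1 was the most abundant at 830.3 CPM, a mean carried by WT endpoint library 3 (5620 CPM) and 548.6 CPM without it, with a log2 fold change of 0.03 ± 0.67, and Por, the reductase that supplies electrons to cytochrome P450 enzymes, had -0.28 ± 0.24. The aldehyde reductase Akr1a1 had -0.02 ± 0.13, and Cyp2f2 had -0.998 ± 0.771. Of 23 genes of conjugation and other epoxide hydrolases, 21 were tested, 11 of them with a positive value and a median of 0.03. The soluble epoxide hydrolase Ephx2, at 368.4 CPM, had a log2 fold change of -0.48 ± 0.35 at 2 weeks. The other relatives Ephx3 and Ephx4 had 0.03 ± 0.40 and 0.06 ± 0.30. None of these was called, but only 0.0258% of all genes were, so this does not set Ephx1 apart from its relatives. The microsomal glutathione transferase Mgst1, at 588.7 CPM, had 0.09 ± 0.24, Gstt2, another glutathione transferase, -0.74 ± 0.30, and Nat2, an arylamine acetyltransferase, -0.29 ± 0.17.

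Of 8 genes controlled by Nrf2, 8 were tested, 6 of them with a positive value and a median of 0.09. Gclc, the catalytic subunit of glutathione synthesis, had the smallest p, with 0.69 ± 0.24 (adjusted p = 0.718 with edgeR). The quinone reductase Nqo1, a textbook target of both Nrf2 and Ahr, had -0.15 ± 0.19, and the thioredoxin reductase Txnrd1 0.07 ± 0.10. Of 4 nuclear receptors for foreign compounds and their partners, 2 were tested, Rxra with 0.09 ± 0.18 and Rxrb with -0.15 ± 0.09.

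**Figure D4:**
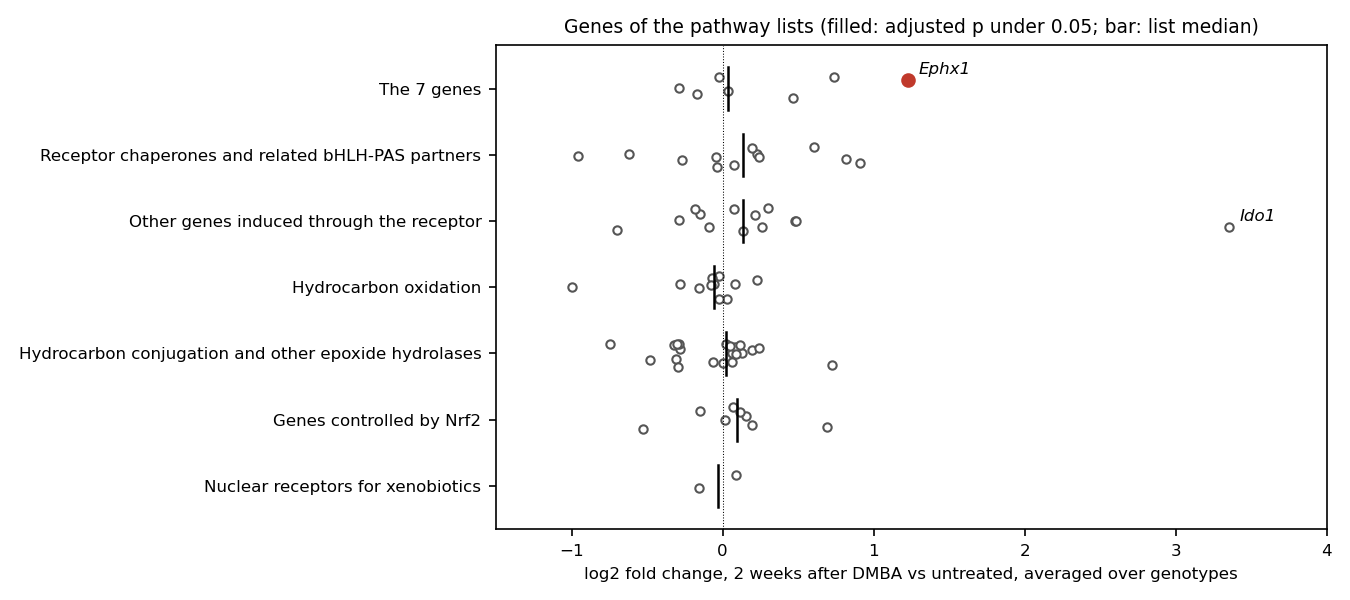
Fitted log2 fold change at 2 weeks against untreated, averaged over genotypes (x axis), of each tested gene in the 6 lists and of the 7 genes (rows); points are genes, spread vertically for sight, and bars are list medians. Ephx1 at 1.23 is the filled point, the called gene, and Ido1 at 3.36 lies farthest right without a call.

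At the endpoint against 2 weeks, 9 of the 66 genes were called (13.6%), close to the 13.4% of all genes, so the count is no result about these lists. Called higher were Gsr (log2 fold change 0.51), which reduces glutathione, Gstt2 (1.19), Rxrb (0.50) and the amino acid transporter gene Slc7a5 (1.80). Called lower were Ugdh (-0.57), which makes the sugar donor for glucuronidation, Hif1a (-1.17), the chaperone gene Hsp90aa1 (-0.60), and the coregulator genes Ncoa2 (-0.74) and Nrip1 (-2.57). In all other comparisons with edgeR 0 of the 66 were called, where at most 0.252% of all genes were. That count is no result about these lists either. At the endpoint against untreated glands, averaged over the genotypes, 12 of the 66 (18.2%) had an unadjusted p under 0.05. This is close to the 16.9% of all genes.

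The genes whose log2 levels followed each member most closely were taken over the 18 libraries from 11332 genes with a mean of at least 5 CPM. They are given as a description, since these libraries share groups and cell makeup. For Ephx1 they were Cpt1c and Pqlc3 (Pearson's r 0.88 each) and Dcxr (0.87), with Spearman's rho of 0.80, 0.80 and 0.75. Dcxr, a reductase of sugars and dicarbonyls, had 115.2, 122.7 and 80.1 CPM in Cip2a-/- and 35.05, 45.8 and 79.5 CPM in WT libraries at 2 weeks. In untreated libraries it had 26.7, 30.5 and 37.1 CPM in Cip2a-/- and 35.5, 36.8 and 42.9 CPM in WT. Like Ephx1, it was highest at 2 weeks in Cip2a-/- glands, and WT library 3 was the highest of the WT libraries at 2 weeks. Dcxr was picked for its likeness to Ephx1, so a shared pattern is no separate result. Pqlc3 was also highest at 2 weeks in Cip2a-/- libraries. Cpt1c was highest in WT 2-week library 3 (83.9 CPM), against 71.6, 61.7 and 49.7 CPM in the Cip2a-/- ones. For Cyp1b1 the closest were Col7a1 (r 0.93), F2rl1 (0.90) and Nav2 (0.90), and for Ahr Mtap2 (0.90), Fzd7 (0.90) and Cxadr (0.89). For Arnt they were Gpr116 (0.91), Eltd1 (0.90) and Epn2 (0.89), and for Tiparp Mdfic (0.89), Mycbp2 (0.87) and Sh3bgrl (0.87). Cyp1a1 had the weakest, Ublcp1 (0.77), Atp6v1g1 (0.74) and Slc25a39 (0.70). Ahrr was below the 5 CPM needed.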

How the data were processed

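RNA was taken with a NucleoSpin kit and libraries were made with a stranded mRNA kit, per the labels' protocols. bcl2fastq 2.17, STAR 2.5.2b, Subread 1.5.1 and the build mm10 were used, per the submitters' processing notes; no source used here states the annotation or strand setting. The authors deposited raw counts of reads by gene symbol with a column for each library, per the file headers. All columns were matched to libraries, with 0 unmatched. Nothing in the labels says that replicates came from separate mice, so p-values measure the spread between these libraries, which may be technical.

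Computed here with edgeR 4.0.16 in R 4.3.3: filterByExpr (minimum count 10, minimum total 15), TMM scaling, 1 quasi-likelihood fit of the 6 group means over 18 libraries, and F-tests on 13 contrasts. Calls were made at 0.05 on p-values adjusted over all genes tested. CPM is scaled by TMM; an SE is the log2 fold change divided by the root of F. Per-length levels use GENCODE transcript lengths and coordinates (GRCm38). The fits were tested on simulated data with changes at 2 weeks. The averaged 2-week test recovered 57 of 100 changes of 1 on the log2 scale and 84 of 100 changes of 2. It made 9 false calls. Changes of both sizes were put in the same simulated data, with genes drawn independently, while the real comparison called 4 genes. More changed genes make the adjusted threshold easier to pass, so the shares recovered may be too high for the real data. The changed genes were drawn above a minimum mean level that Ahrr did not reach. Alternatives were DESeq2 1.42.0, limma-voom with quality weights (limma 3.58.1), other scaling, no filter, a replicate block and leaving out each library. The members, gene lists and tests were chosen with earlier results of these data known. Named besides the 7 members were, from each list, genes called in any comparison, the 2 most abundant, the 2 with the smallest p at 2 weeks, and the 3 genes most like each member. Ephx3, Ephx4 and Cyp1a2 were named for their roles, after their values were seen.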

Additional observations from a re-analysis of the deposited data

Results flagged for a closer look

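The Ephx1 difference between the genotypes in the change from untreated to endpoint glands was marked because the 2 genotypes moved in opposite directions with no overlap of libraries. All 3 Cip2a-/- endpoint libraries lay above the Cip2a-/- untreated ones (168.7 ± 5.79 against 103.2 ± 7.09 CPM, SD, n = 3 each), and all 3 WT endpoint libraries lay below the WT untreated ones (97.5 ± 12.9 against 155.2 ± 24.4 CPM, SD, n = 3 each). The edgeR test of the difference gave 1.379 on the log2 scale (adjusted p = 0.49), and 18 of 15482 genes (0.116%) showed the same arrangement. Fibroblast markers summed to 921 to 3604 CPM in Cip2a-/- and 574.8 to 2644 CPM in WT endpoint libraries, and to 2267 to 5699 CPM in Cip2a-/- and 3093 to 4817 CPM in WT untreated libraries; their part in the result was not tested.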

How the results depend on the processing

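The 3 libraries of a group limit the precision, and for Ahrr and Cyp1a1 the counts do so too, with as few as 9 and 8 reads. Counts of genes called depended on the tool. DESeq2 called 88 genes at 2 weeks on average, 14 in WT and 36 in Cip2a-/-, 828 at the endpoint against untreated on average, 310 in WT and 270 in Cip2a-/-, and 3250 at the endpoint against 2 weeks. For Cip2a-/- against WT it called 3 on average, 6 untreated, 3 at 2 weeks and 83 at the endpoint, and for the interactions 7 at 2 weeks and 34 at the endpoint. Limma-voom with quality weights called 76 at 2 weeks on average, 528 in WT and 1 in Cip2a-/-, 3 at the endpoint on average and 17 in WT, 0 between the genotypes at the endpoint and 13 for the interaction at 2 weeks. Of the 7 genes, the endpoint against 2 weeks called 2 with DESeq2 and 2 with the replicate block (Ahrr besides Ephx1), and the endpoint interaction called 1 with DESeq2 (Ephx1). Ahrr had an adjusted p of 0.0351 with DESeq2 and 0.0438 with the block. Without the endpoint libraries, 0 genes were called at 2 weeks in Cip2a-/-, and 0 of the 7 there and on average. The replicate block gave 60 genes at the endpoint on average and 20 in WT. Correlations of same-numbered libraries ran from -0.468 to 0.66, so the numbers were not taken as pairs. Among libraries of other groups, 10 of 18 libraries correlated best with one of their own number. Each of those groups held 1 such library among its 3. Whether this count reflects pairing was not tested, and the design does not state pairs.

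Leaving out each library in turn gave 1 to 12 genes at 2 weeks on average and 0 to 3 in Cip2a-/-, 2 to 279 at the endpoint against untreated on average, 0 to 46 in WT and 0 to 9 in Cip2a-/-, and 978 to 2610 at the endpoint against 2 weeks. It gave 1 to 2 for Cip2a-/- against WT on average, 0 to 2 at 2 weeks and 0 to 6 at the endpoint, and 0 to 1 for each interaction. Of the 7 genes, 0 to 1 were called at 2 weeks on average and in Cip2a-/-. Of 665 refitted log2 fold changes of members, 647 kept their side of the threshold, 15 lost it (Ephx1) and 3 gained it (Ephx1 and Ahrr). No called value turned its sign, and other scaling moved 0 of 84 levels by more than their SD.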

Other observations

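Per length of transcript, Cyp1b1 exceeded Cyp1a1 in 14 of 18 libraries, and the ratio of their levels ran from 0.471 to 34.8 with a median of 3.13. Cyp1b1 exceeded Ahr in 17 of 18 libraries, with a ratio from 0.94 to 3.51, while Cyp1a1 varied from 0.447 to 23.5 CPM and Ahr from 7.27 to 27.6 CPM. Of 5 liver markers, 1 of them Cyp2e1, 3 were tested; at the endpoint against untreated glands 2 of 3 had a positive log2 fold change and 0 were called by edgeR, with a range from -1.67 to 2.11 and a median of 1.47.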
